A study of Mus musculus with 8 samples.

Results

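Notum and Frat2 are 2 genes that act on Wnt signalling at different points of the pathway, and their transcripts were followed in mouse kidney anlagen with and without a working Wt1 gene. They were found through the transcript identifier that the array files give for each probe. Of 33012 probes, 1 carried a RefSeq transcript of Notum (NM_175263.2) and 1 a transcript of Frat2 (NM_177603.1), so each gene is read from a single probe, out of 310 genes that could be named. The samples were 8 pools of metanephric kidney anlagen, 16 kidneys per pool, from mouse embryos of mixed C57Bl6/DBA background at stage E10.25, with 8 to 13 tail somites. In 4 pools the embryos were Wt1 mutants, titled KO, from mice carrying a Wt1 mutant allele. The labels name no Cre or tissue-specific promoter. The other 4 were control pools, which their titles call wild type and their genotype entry calls Wt1 heterozygote. They are called controls here. The study asked which genes are deregulated in the mutants at this stage, which the submitters say precedes apoptosis. Each pool was hybridised to 1 single-colour Applied Biosystems array. The labels do not say if pools derive from different litters or dissections, so the p-values rest on pool-to-pool spread that may be partly technical.

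Wnt proteins are secreted lipid-modified signals. Where they reach a Frizzled receptor, the complex of Axin, APC and the kinase GSK3 that otherwise marks beta-catenin for destruction is held in check, and beta-catenin enters the nucleus and acts with TCF/LEF factors. Notum is a secreted carboxylesterase that removes the lipid from Wnt proteins and so inactivates them outside the cell. It is known as a feedback inhibitor, being switched on by Wnt signalling in several tissues. Frat2 belongs to a small family of proteins that bind GSK3, compete with Axin for it and thereby favour beta-catenin. In the developing kidney, Wnt signals from the ureteric bud start nephron formation in the mesenchyme around it, and Wt1, a zinc finger transcription factor, is needed for that mesenchyme to survive.

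The control pools were not alike, and this bears on each value that follows. Control pools 1 and 2 lay at 42.16 and 67.46 on the first principal component, which held 42.4% of the variance, while the other 6 pools lay between -21.50 and -13.08. The median SD of a tested probe on the log2 scale was 0.287 among controls and 0.136 among mutants. The median deposited signal ran from 681.6 to 2118.2 per array, and 52.6% to 59.5% of probes were detected. None of the 12 listed markers of metanephric mesenchyme, Wt1 among them, was matched to a probe. The dissected tissue and the genotype labels were therefore not checked against their defining genes. The number of arrays limits the precision. These are bulk tissue pools, in which fewer cells of a type and less RNA per cell cannot be told apart.

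Notum was detected in all 8 pools, and its signal did not differ between genotypes beyond the spread between pools. Detection here means a signal-to-noise score of at least 3 with a flag under 5000, and the score ran from 4.46 to 19.89 with a flag of 0 throughout. The deposited linear signal was 2052, 2302, 1834 and 2971 in mutant pools 1 to 4. It was 3131, 1091, 3138 and 2257 in control pools 1 to 4. After log2 transformation and quantile normalization, which gives every array the same distribution of values, the mutant pools measured 11.51, 11.20, 11.15 and 11.37. The control pools measured 10.66, 10.81, 11.20 and 11.19. The lowest 2 values of the 8 were those of control pools 1 and 2, while control pools 3 and 4 lay within the range of the mutants, so the groups overlapped. The mean was 11.31 ± 0.16 in mutants and 10.96 ± 0.27 in controls (log2 signal, SD, n = 4), a 1.27-fold higher mean in mutants. The difference was 0.34 (SE 0.16, 95% interval -0.02 to 0.71), with limma's adjusted p = 0.379 over 17594 tested probes, of which 81, or 0.46%, passed the threshold of 0.05. The exact two-sided permutation test over the 70 groupings of 4 and 4 pools gave p = 0.114, where the smallest value it can give is 0.0286.

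Frat2 was also detected in all 8 pools, with a signal-to-noise score of 12.75 to 51.67 and a flag of 0, and it too showed no difference beyond the spread between pools. The deposited linear signal was 3579, 4744, 4888 and 5804 in mutant pools 1 to 4. It was 17391, 4411, 5162 and 5017 in control pools 1 to 4. Control pool 1 had the highest Frat2 signal before normalization, and also the highest median signal of all arrays. On the normalized log2 scale the mutants measured 12.35, 12.24, 12.57 and 12.36. The controls measured 12.98, 12.70, 11.93 and 12.41. Control pools 1 and 2 were the highest 2 of the 8 pools, control pool 3 was the lowest, and the mutants lay between them. The mean was 12.38 ± 0.14 in mutants and 12.50 ± 0.45 in controls (log2 signal, SD, n = 4), a 1.09-fold lower mean in mutants. The difference was -0.12 (SE 0.21, 95% interval -0.61 to 0.37), with limma's adjusted p = 0.782. The exact two-sided permutation test gave p = 0.6. Differences up to the interval bounds of either gene, 0.71 for Notum and -0.61 for Frat2, remain possible with these pools.

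**Figure D1:**
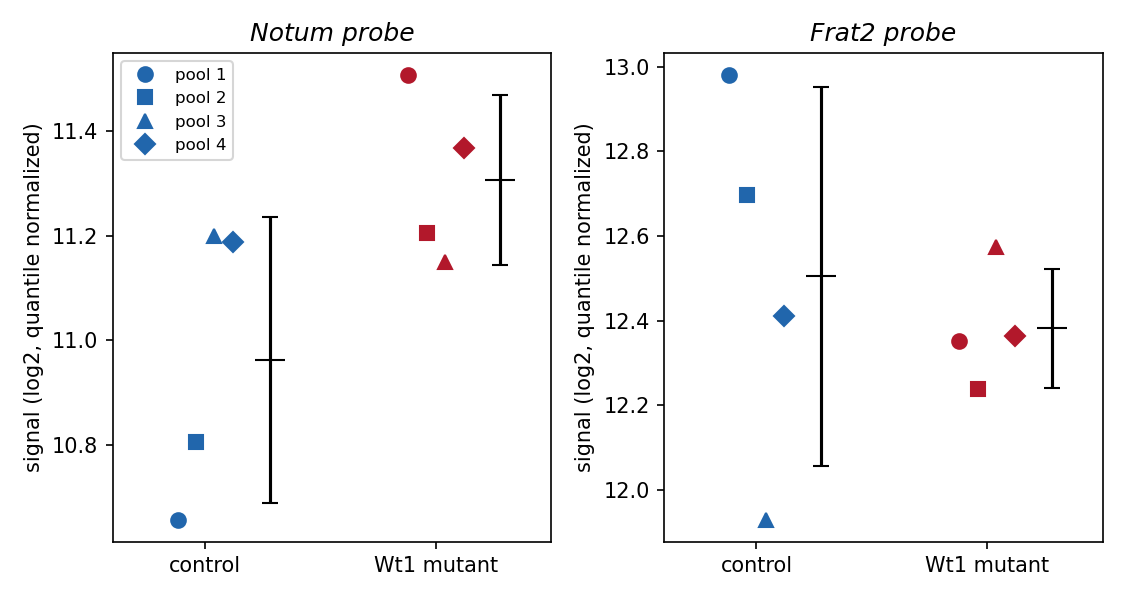
Signal of the Notum probe (left) and the Frat2 probe (right) on the log2, quantile normalized scale, with 1 point per pool (blue, control; red, Wt1 mutant; the symbol gives the pool number in both groups) and the mean ± SD of each group of 4 as a black bar. Control pools 1 and 2 are the lowest points for Notum, at 10.66 and 10.81, and the highest for Frat2, at 12.98 and 12.70.

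Since Wt1 encodes a transcription factor, the region just before the Frat2 start site is shown here. The window is from the RefSeq table of build GRCm38.p6, chr19:41848133-41848382, minus strand, and holds the 250 bases before the annotated start, written 5′ to 3′ along the gene, with matches to the motifs named below in capitals.
Frat2 promoter: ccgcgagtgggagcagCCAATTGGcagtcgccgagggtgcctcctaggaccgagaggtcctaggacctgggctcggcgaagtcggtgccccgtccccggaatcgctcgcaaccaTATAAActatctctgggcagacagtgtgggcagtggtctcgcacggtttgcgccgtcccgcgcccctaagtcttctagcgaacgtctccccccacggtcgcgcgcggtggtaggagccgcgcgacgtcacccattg
The capitals mark 1 match to the letters of the TATA box (TATAAA), which starts at position -136 counted from the start site. They also mark 2 matches to the letters of the CCAAT box (CCAAT) on opposite strands that overlap each other, the first of them starting at -234. Both strands were searched. Of all 32851 windows of this length, 12.4% hold TATAAA and 33.8% hold CCAAT. The core shared by WT1 and EGR factors (GCGTGGG, in 4.30% of windows) and the TCF/LEF core (ATCAAAG, in 3.21%) had 0 matches here, which says only that these letters are not in this window. The window is 66.0% G and C with 29 CpG dinucleotides, against medians of 52.4% and 6 over all windows. These matches are a description of the sequence, and the arrays measure transcripts and not binding.

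Without control pools 1 and 2, both differences, mutant minus control, were above 0, with intervals that included 0. Notum then differed by 0.11 (SE 0.12, 95% interval -0.18 to 0.41, limma's adjusted p = 0.657). Frat2 differed by 0.21 (SE 0.16, 95% interval -0.19 to 0.61, limma's adjusted p = 0.539), so its direction turned. In size this was larger than the -0.12 with all pools. Of all tested probes 89, or 0.506%, passed in that comparison. With control pools 1 and 2 as the only controls, Notum was 0.58 higher in mutants (SE 0.13), a 1.49-fold difference with limma's adjusted p = 0.0251. The Frat2 difference there was -0.46 (SE 0.14), a signal 1.37-fold higher in those controls than in mutants, with limma's adjusted p = 0.0544. In that comparison 4566 of all tested probes passed, or 26%, so passing there is common among probes. Control pools 1 and 2 lay below control pools 3 and 4 by a mean of -0.46 for Notum and above them by 0.67 for Frat2. A gap between these pairs of controls at least as large was found in 38.6% of tested probes for the Notum value and in 21.6% for the Frat2 value.

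Leaving out single pools showed which libraries carried each value. For Notum the difference stayed above 0 in all 8 cases, from 0.24 without control pool 1 to 0.42 without control pool 3, and limma's adjusted p ran from 0.222 to 0.640. For Frat2 it ran from -0.31 without control pool 3 (limma's adjusted p = 0.310) to 0.04 without control pool 1 (limma's adjusted p = 0.948), so a single control pool sufficed to turn its direction. The array names carry 2 dates. The larger date holds 3 pools of each genotype, and the smaller holds mutant pool 1 and control pool 2, which allows no test. Within the larger date the difference was 0.23 for Notum (SE 0.18, limma's adjusted p = 0.690). For Frat2 it was -0.05 (SE 0.27, limma's adjusted p = 0.952). The array names of mutant pools 1 and 4 also share a number, and the labels do not say whether these are repeats of the same material. If they are, the mutants number 3 samples and not 4. With these pools averaged as 1 sample, the difference was 0.30 for Notum (SE 0.18, limma's adjusted p = 0.547) and -0.12 for Frat2 (SE 0.25, limma's adjusted p = 0.848). With the date as a block the differences were those of all pools, 0.34 and -0.12. They must be, since each date holds equal numbers of pools of both genotypes, so this does not show that the date had no influence. Only the SE and the test could change, and the SE was 0.17 for Notum and 0.22 for Frat2.

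**Figure D2:**
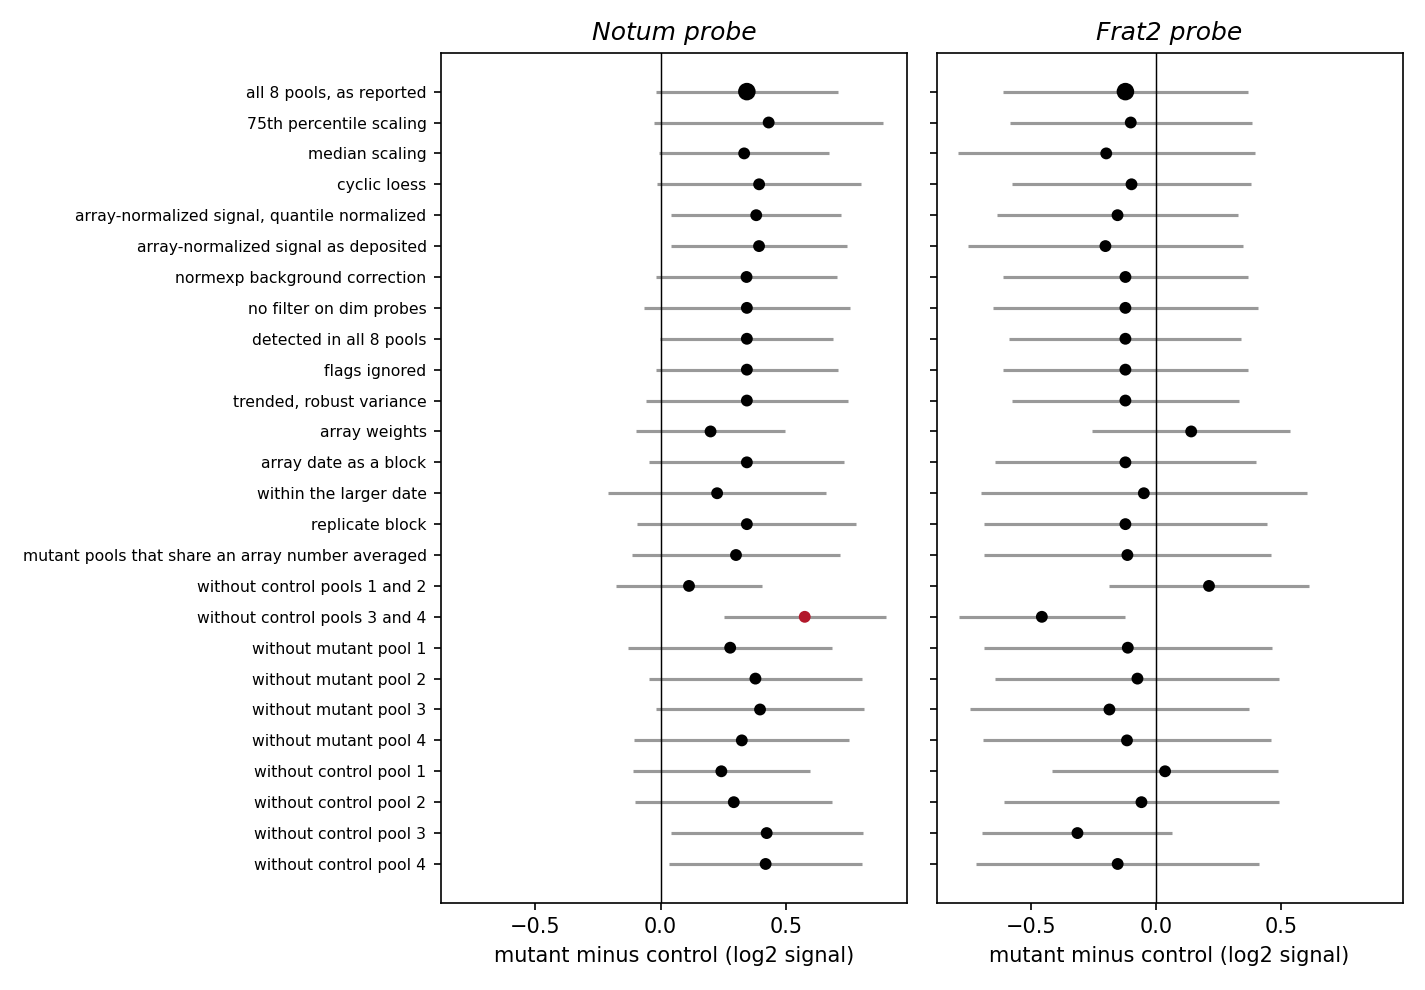
Difference in log2 signal, mutant minus control, for Notum (left) and Frat2 (right), with all 8 pools (large point) and under each alternative (small points, 1 per row), and the 95% interval as a grey line. The red point has an adjusted p under 0.05 in limma's test and is the Notum value of 0.58 without control pools 3 and 4; the Frat2 values cross 0, from -0.46 to 0.21.

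The only marker of another tissue that was matched and tested was the alpha globin Hba-a1, 1 of 8 listed red cell genes. It was lowest in control pools 1 and 2. Its log2 signal was 18.08 and 18.66 in control pools 1 and 2, 19.40 and 19.64 in control pools 3 and 4, and 19.77 to 20.10 in the mutants. It differed by 0.98 between genotypes (SE 0.32, limma's adjusted p = 0.279). All 4 control pools lay below every mutant pool, and 10.6% of all tested probes separated the genotypes in this way, in either direction. Control pools 1 and 2, lowest in globin signal, were also the lowest in Notum and the highest in Frat2, but control pool 3, the next lowest in globin, had the lowest Frat2 signal of the 8 and a Notum signal within the range of the mutants. The part of blood content in either value was not tested. Of the 6 listed neural and neural crest genes only Sox3 was matched, and it was detected in 1 pool, a control. The endothelial, leukocyte, ureteric bud, gut, germ cell and muscle lists had 0 matched members.

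Of the 171 listed Wnt pathway genes, 5 were matched to a probe and 4 were tested. The 4 were Notum, Frat2, Peg12 and Jun. The counts and the median below thus include the values of Notum and Frat2 given above and are not separate from them. None of the 4 passed the threshold in limma's test in either direction, against 0.46% of all tested probes, and none had an unadjusted p under 0.05, as 13.5% of all tested probes did. Their median difference was 0.11, with 3 above 0 and 1 below, beside -0.06 over all tested probes. With 4 genes this describes those genes and not the pathway. No Wnt ligand, receptor or nuclear effector on the list was matched, so the feedback circuit in which Notum takes part was not analysed here beyond these genes.

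Among the secreted modifiers, Sfrp4, a Frizzled-related protein that binds Wnts outside the cell, was matched as well as Notum. It was detected in 1 of 8 pools, control pool 2, and was not tested. Its highest signals, on the log2 scale 9.46 and 9.24, were those of control pools 1 and 2, and the other 6 pools lay between 7.77 and 9.02. Since it was below detection elsewhere, no fold is given.

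In the GSK3-binding family, Peg12, also called Frat3 and known as an imprinted gene expressed from the paternal copy, was also matched to a probe. Frat1, the neighbour of Frat2 on chromosome 19, was not matched to a probe. The Frat genes are similar in sequence and probe sequences were not used here, so whether the Frat2 probe also reads other family members was not tested. Peg12 was detected in all 8 pools, with mutants at 13.65, 13.82, 13.85 and 13.51 on the log2 scale. The controls measured 13.51, 13.47, 13.51 and 13.81. The groups overlapped, and control pools 1 and 2, the highest for Frat2, were the lowest of the 8 here, but by a narrow margin. Control pool 1 measured 13.5051 and mutant pool 4 measured 13.5066. In the deposited array-normalized signal mutant pool 4 was the lowest for Peg12, at 10.61. Control pool 1 measured 12.43 there, above mutant pool 1 at 11.72. The means were 13.71 ± 0.16 in mutants and 13.57 ± 0.16 in controls (log2 signal, SD, n = 4), and the difference was 0.14 (SE 0.13, 95% interval -0.16 to 0.43, limma's adjusted p = 0.594). It was 0.05 without control pools 1 and 2. The SD among controls was 3.20 times that among mutants for Frat2 and 0.972 times for Peg12.

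Jun, an AP-1 transcription factor reported as a target of Wnt signalling, measured 15.75, 15.76, 15.79 and 15.94 in the mutants on the log2 scale. It measured 15.58, 15.74, 15.86 and 15.71 in the controls. The difference was 0.09 (SE 0.11, limma's adjusted p = 0.677) and was 0.02 without control pools 1 and 2. Its groups overlapped. None of the 4 tested Wnt genes, Notum and Frat2 among them, separated the genotypes without overlap, which 10.6% of all tested probes did.

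**Figure D3:**
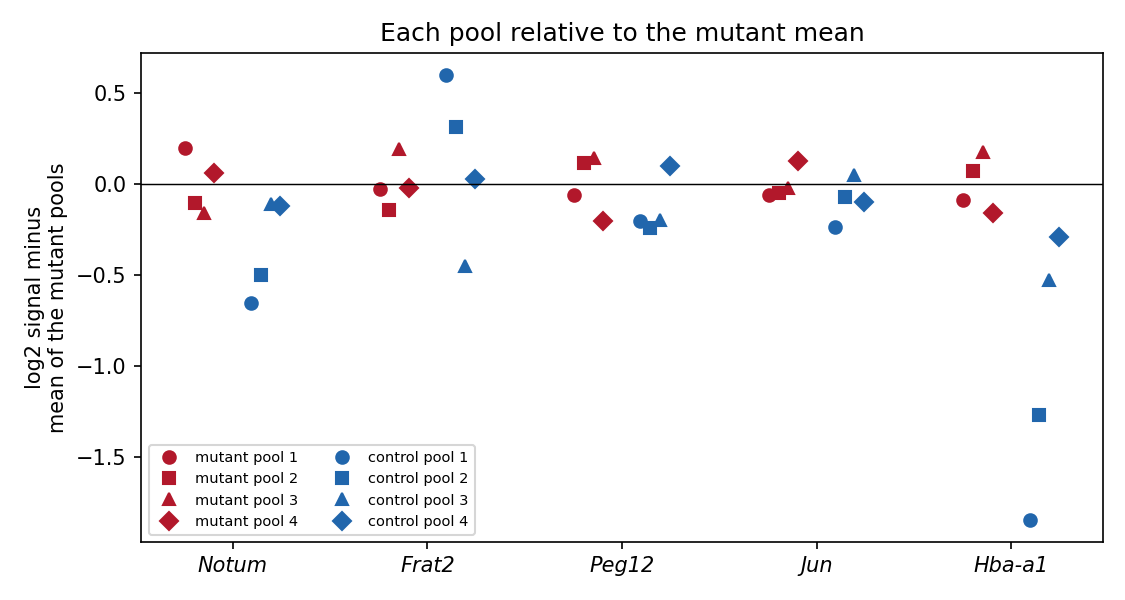
Log2 signal of each pool minus the mean of the 4 mutant pools, for the 4 tested Wnt genes and for Hba-a1 (red, mutant; blue, control; the symbol gives the pool number). Control pools 1 and 2 lie below every mutant pool for Notum, Peg12, Jun and Hba-a1 and above every mutant pool for Frat2. For Peg12 and Jun the margin is narrow. It is 13.5051 in control pool 1 against 13.5066 in mutant pool 4 for Peg12, and 15.739 in control pool 2 against 15.7537 in mutant pool 1 for Jun. Neither ordering holds in the deposited array-normalized signal. For Hba-a1 control pools 3 and 4 lie below the mutants as well.

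The genes whose pattern over the 8 pools was most like that of Notum were looked up among the other 176 tested probes with a gene name. They were the galectin Lgals1 (Pearson's r = 0.91), the mitochondrial dehydrogenase Hsd17b10 (0.90), the copper chaperone Atox1 (0.90), the prefoldin subunit Pfdn5 (0.89) and the connexin Gjd3 (0.89). All 5 had their lowest mean in control pools 1 and 2. For Lgals1 it was 15.07 there, 16.57 in control pools 3 and 4 and 16.89 in mutants, and for Atox1 16.03, 17.54 and 17.53 (log2 signal). Those most like Frat2 were Tbc1d16, a regulator of Rab GTPases (0.87), Epdr1 (0.80), the stimulatory G protein gene Gnas (0.78), the SUMO protease Senp3 (0.75) and Trim41 (0.74). All 5 had their highest mean in control pools 1 and 2, for Epdr1 13.63 against 12.90 in control pools 3 and 4 and 13.10 in mutants. For Senp3 the values were 17.08, 16.35 and 16.39. These correlations describe 8 arrays that all genes share, with 2 of them standing apart. None of these 10 genes passed the threshold in limma's test, with adjusted p from 0.310 for Hsd17b10 to 0.790 for Gnas.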

How the data were processed

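Per the labels' protocols, amplified digoxigenin-labelled cRNA of each pool was hybridised to 1 array. The authors deposited a signal per probe, an intensity in linear units without negative values. The deposited array-normalized signal, also an intensity, equals the value table of the series in 264096 of 264096 cells (tolerance 0.005). The signal-to-noise score that the authors deposited was used to filter probes, together with the other deposited column, a quality flag. The reader software is not given in the sources used here.

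Log2 signals were quantile normalized over 33012 probes with limma 3.58.1 in R 4.3.3. Tests covered the 17594 probes that reached a score of 3, with a flag below 5000, in 3 or more pools of either genotype. The genotypes were fitted with limma (lmFit and eBayes, two-sided), and p-values were adjusted over these probes by Benjamini-Hochberg, at a threshold of 0.05. The test was tried on simulated data with independent arrays and the same spread in both genotypes. The control pools here spread more than the mutants and 2 of them stood apart together. The trial therefore does not vouch for the test on these data. Gene names came from RefSeq (GRCm38.p6), by transcript without version or by symbol or synonym, for 316 probes and 310 genes. None of the 27930 mCG identifiers was matched. A genome build is not given in the array files.

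The members, the 171 Wnt genes, the markers and the alternatives were chosen with earlier results of these data known. Named genes are the members, each listed Wnt gene with a probe, and the 5 named probes most correlated with each member. Alternatives changed the scaling, values, background, filter, variance model, weights, date, replicate block, repeats and pools, always over the same probes unless the filter was changed. The control pairs were left out because control pools 1 and 2 were known to stand apart.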

Additional observations from a re-analysis of the deposited data

Results flagged for a closer look

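The Peg12 value of control pool 4 was 13.81 (log2 signal), while the remaining controls lay between 13.47 and 13.51. Of 28 groups of 4 pools checked, this was the 1 in which a value stood far from the rest of its group. Chance gives about 1 in 20 for each group, so 1 of 28 is not more than chance gives. In the deposited array-normalized signal control pools 1 to 4 measured 12.43, 10.89, 11.19 and 12.98, and control pool 4 did not stand apart.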

How the results depend on the processing

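The difference for Notum kept its direction under 25 of 25 alternatives, from 0.11 to 0.58, and passed the threshold under 1, without control pools 3 and 4 (0.58). Leaving out 1 pool gave 0.24 to 0.42. Changed filters, the changed variance model and the date and replicate blocks cannot move the difference of either gene. They are counted among the 25, but their direction was fixed in advance. The difference for Frat2 passed under 0 of 25 (limma's lowest adjusted p = 0.0544) and kept its direction under 22. It was 0.14 with array weights, where control pool 1 had a weight of 0.305 and control pool 2 of 0.161, 0.21 when control pools 1 and 2 were left out, 0.036 when only control pool 1 was, and -0.31 to 0.04 over all 8 cases with 1 pool left out. The count of 81 probes was 30 without a filter, 285 with array weights, 30 with the replicate block, 30 within the larger date, 36 when mutant pools 1 and 4 (same number in the array name) entered as their mean, 4566 without control pools 3 and 4, and 38 to 65 with 1 pool left out. By construction the fits that leave out or average pools rest on fewer of them, and the fit without a filter tests more probes; otherwise the cause was not tested. Under the replicate block the differences were 0.34 and -0.12, as they must be when each number holds a mutant and a control pool. The SE there was 0.18 for Notum and 0.23 for Frat2. Same-numbered pools deviated together at correlations of -0.09 to 0.18, and 1 of 4 correlated best with its own number. Whether the numbers pair the pools by litter or dissection cannot be told from these values. The 6 other scalings and values gave 0.33 to 0.43 for Notum and -0.20 to -0.10 for Frat2. Median scaling put the median of all tested probes at -0.12, and relative to it Notum lay at 0.45 and Frat2 at -0.08. No depth is known for arrays; Notum's lowest signal-to-noise score, 4.46 in control pool 2, was closer to the detection limit than that of Frat2.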
